A study of Mus musculus with 6 samples.

Results

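The 10 genes examined here mark or set the epithelial and mesenchymal states of a cell, and they were measured in orthotopic HCA-1 liver tumors. They were the epithelial members Cdh1, Esrp1 and Zfp750, the mesenchymal members Cdh2 and Vim, and the transcription factors Snai1, Snai2, Zeb1, Zeb2 and Twist1. They were found by symbol among 55536 genes of the count table, and 9 of the 10 passed a filter on low counts that kept 15374 genes. Because the genes were chosen by their measured values in this same comparison, the differences between the groups are given as a description and support nothing by themselves.

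Epithelial cells are joined by adherens junctions built on E-cadherin, the product of Cdh1, and keep an epithelial pattern of splicing through the ESRP proteins. In an epithelial to mesenchymal transition, factors of the SNAIL, ZEB and TWIST families repress Cdh1 and related genes by binding E-box motifs, and the cell takes up vimentin filaments and N-cadherin, the product of Cdh2. Liver is a special case, because normal hepatocytes carry both E-cadherin and N-cadherin and have little vimentin, which is abundant in stellate cells, fibroblasts, endothelium and leukocytes.

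HCA-1 is a murine hepatocellular carcinoma line, and it was grown in the livers of male C3H mice (C3H/HeNCrNarl in the methods) aged 6 to 8 weeks at implantation. Whole-tumor RNA was sequenced from 3 untreated tumors, the controls numbered 5, 6 and 7, and from 3 tumors of mice given the nanogel GOx-DOX-LGP, which carries glucose oxidase (GOX) and doxorubicin (DOX), numbered 1, 2 and 5 and called treated tumors here. Values of the 3 libraries of a group are given in that order. The nanogel was given intravenously on days 18, 19 and 20, whereas the sample description places the transcriptome analysis on day 17 after 3 h of circulation. The methods describe a harvest on the day after the last dose for tumors used in quantitative PCR, and give no harvest day for the sequenced tumors. The time from dose to harvest is therefore not settled by the sources. The 6 libraries include no tumor given the empty carrier, GOX alone or DOX alone, so the effects of the 3 components cannot be told apart. Nothing in the descriptions says that each tumor came from its own mouse, and p-values then measure only the spread between these samples.

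The libraries held 15529940 to 18401178 counts assigned to genes, so that the floor of 3 counts lay between 0.132 and 0.323 CPM, counts relative to the library total after scaling by the trimmed mean of M values (TMM). Control 5 stood apart from the other controls, and no measurement here checks its label, on which every control mean and fold change depends. Its log2 CPM correlated with those of controls 6 and 7 at r = 0.730 and 0.659 across genes, and with those of the treated tumors at 0.966 to 0.975, whereas controls 6 and 7 correlated with each other at 0.969 (genes are not independent replicates). The summed level of 18 hepatocyte genes, such as Alb for albumin, was 791 CPM in control 5 but 152281 and 251289 CPM in controls 6 and 7, and it lay between 1711 and 4332 CPM in the treated tumors. All 18 were detected in every library. The controls therefore held 1 tumor with few hepatocyte transcripts and 2 tumors rich in them. In whole-tumor RNA, fewer cells of a type and less RNA per cell cannot be told apart, and the part of hepatocyte transcripts in the differences described next was not tested beyond a fit that includes them.

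Cdh1, on chromosome 8 at 106603351 to 106670246 of the plus strand (GRCm38, for this and all positions), did not separate the groups. Its level was 38.3, 64.5 and 79.4 CPM across the controls and 45.5, 82.5 and 34.3 CPM across the treated tumors. The highest and the lowest of the 6 values were both in treated tumors. The means were 60.7 ± 20.8 and 54.1 ± 25.2 CPM (SD, n = 3 each), and the log2 fold change (GOx-DOX-LGP minus control) was -0.16 (SE 0.42). Its sign depended on the scaling: it was 0.49 when libraries were scaled by their totals, which also moved the median of all genes to 0.51.

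Esrp1, which encodes an epithelial regulator of alternative splicing, was close to the floor. Its exons on chromosome 4 (11331933 to 11386783, minus strand) received 10, 4 and 7 counts across the controls and 11, 9 and 7 counts across the treated tumors. These are 0.339 to 0.753 CPM in the controls and 0.364 to 0.544 CPM in the treated tumors, which overlap. Esrp1 did not pass the low-count filter. Fitted without the filter, its log2 fold change was -0.08 with an SE of 0.63, so only a large difference could have been seen at these counts and none was. The paralogue Esrp2, the main ESRP gene of adult hepatocytes, was at 1.62, 90.3 and 126 CPM across the controls and at 2.82, 1.18 and 1.87 CPM across the treated tumors. Esrp2 was therefore high in the same controls that were rich in hepatocyte transcripts and low in control 5, with overlap between the groups.

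Zfp750, the mouse gene of a transcription factor known for driving late differentiation of the epidermis, was lower in all 3 treated tumors than in any control. Counts were 283, 259 and 312 across the controls and 108, 102 and 70 across the treated tumors. Scaled, the levels were 12.4, 22.0 and 33.6 CPM against 5.34, 5.0 and 3.64 CPM. Control 5, with few hepatocyte transcripts, was the lowest control and still 2.33-fold above the highest treated tumor. The means were 22.7 ± 10.6 and 4.66 ± 0.897 CPM, a 4.86-fold difference, with a log2 fold change of -2.28 (SE 0.42). This log2 fold change was -1.40 against control 5 alone, -1.67 with a hepatocyte score as covariate, and negative in 14 of 14 alternative fits. As the groups did not overlap, its sign was nearly fixed in advance on leaving out a library or with control 5 alone.

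The gene lies on chromosome 11 at 121510978 to 121519333 (minus strand) within the span of Tbcd, a tubulin chaperone gene on the opposite strand, with which it shares 0 exon bases in the annotation. Tbcd itself was at 33.8, 37.6 and 36.6 CPM across the controls and at 33.3, 40.0 and 31.1 CPM across the treated tumors, and the groups overlapped. Genes of squamous epithelium were sparse in every library. The sum over 10 of them was 5.49 to 12.8 CPM in the controls and 8.55 to 22.8 CPM in the treated tumors, 5 of the 10 were detected in every library, and Krt14, the basal keratin, was at 0.108 to 0.395 CPM in the controls and 0.208 to 1.57 CPM in the treated tumors. Of the 10, 3 to 4 were at 0 in each control and 1 to 4 in each treated tumor. Trp63, for the squamous regulator p63 and named after its values were seen, was at 0.263, 6.87 and 1.72 CPM across the controls and at 0.791, 13.4 and 0.937 CPM across the treated tumors. Krt1 and Krt5 were not analysed here.

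Cdh2, on the minus strand of chromosome 18 (16588877 to 16809246), was likewise lower in each treated tumor than in each control. The controls held 129, 126 and 189 CPM and the treated tumors held 103, 91.8 and 74.5 CPM. The gap between the groups was narrow, with the lowest control 1.22-fold above the highest treated tumor, and the groups overlapped when libraries were scaled by their totals. The means were 148 ± 35.4 and 89.7 ± 14.3 CPM and the log2 fold change was -0.72 (SE 0.27). Control 5 lay among the other controls for this gene.

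Vim, on chromosome 2 (13573927 to 13582826, plus strand), showed the widest spread of the 10 genes among controls. The controls held 7513, 1781 and 321 CPM and the treated tumors held 9448, 8418 and 10470 CPM. The groups did not overlap, but the lowest treated tumor was only 1.12-fold above control 5. The controls differed among themselves by 23.4-fold, whereas the treated tumors differed by 1.24-fold. The means of 3205 ± 3802 and 9446 ± 1026 CPM gave a log2 fold change of 1.56 (SE 1.14), which became 3.20 (SE 0.77) without control 5 and 0.34 (SE 0.24) with control 5 as the sole control. By CPM per kilobase of exon Vim ranked 9 among 15374 genes in control 5 and 9 to 10 in the treated tumors, but 143 in control 6 and 995 in control 7.

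**Figure D1:**
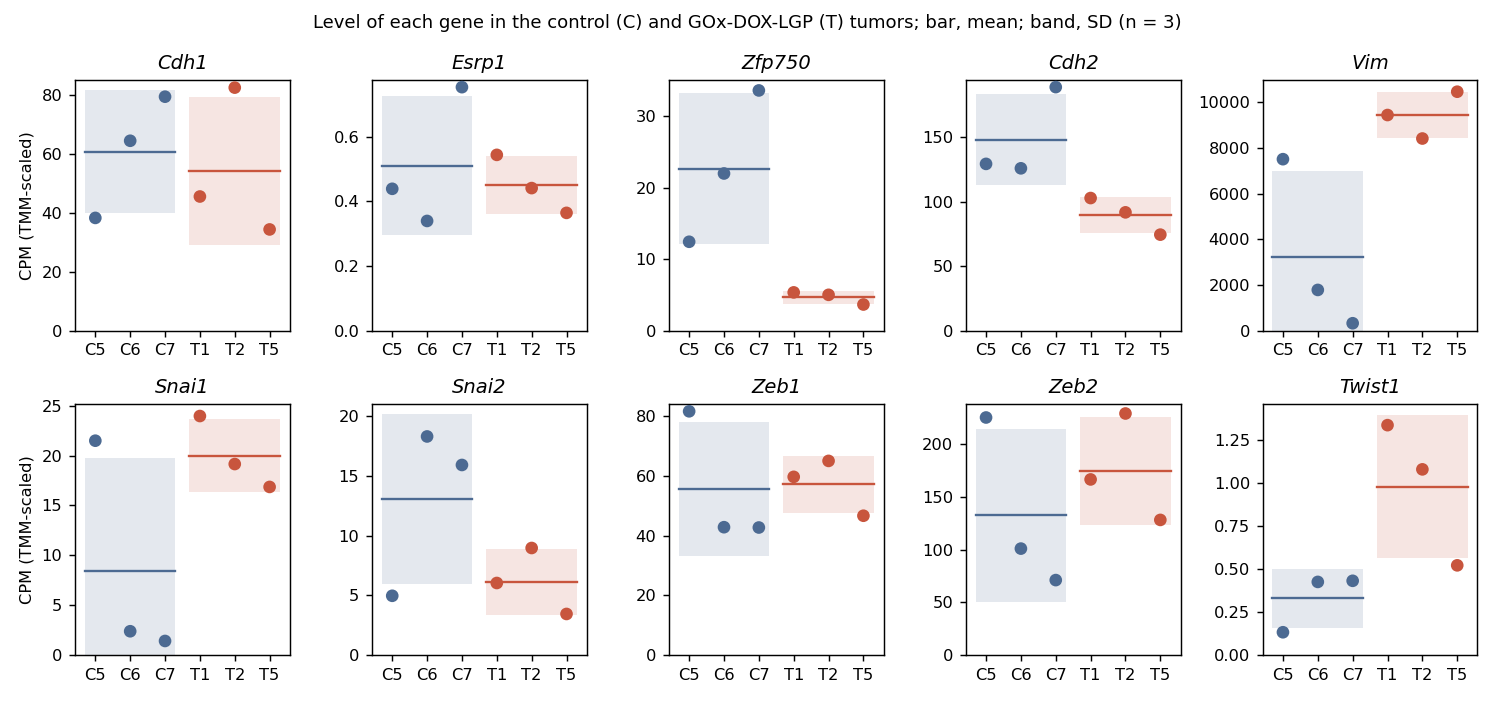
Level of the 10 genes (vertical axis, TMM-scaled CPM, linear from 0) in controls 5, 6 and 7 (C5 to C7, blue) and treated tumors 1, 2 and 5 (T1, T2, T5, red). Points are libraries, lines are means and bands are 1 SD (n = 3), drawn no lower than 0. The groups do not overlap for Zfp750, Cdh2, Vim and Twist1, and control 5 lies near the treated tumors for Vim, Snai1 and Snai2.

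Among the transcription factors, Snai1 and Snai2 ran in opposite directions across the same libraries. Snai1 encodes SNAIL, a repressor of Cdh1, and lies on chromosome 2 (167538195 to 167542814, plus strand). It was at 21.5 CPM in control 5 but at 2.37 and 1.40 CPM in controls 6 and 7, and at 24.0, 19.2 and 16.9 CPM across the treated tumors. Control 5 was above 2 of the 3 treated tumors and 11.4-fold above the mean of the other controls. The log2 fold change was 1.23 (SE 0.99), and it was 3.41 (SE 0.34) without control 5 and -0.09 (SE 0.28) with control 5 as the sole control. Snai2, which encodes the related repressor SLUG and lies on chromosome 16 (14705852 to 14709385, plus strand), was at 4.96, 18.3 and 15.9 CPM across the controls and at 6.03, 8.96 and 3.43 CPM across the treated tumors. Control 5 again lay inside the range of the treated tumors, and the log2 fold change was -1.08 (SE 0.59). The third paralogue, Snai3, did not exceed 0.520 CPM in any library.

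Zeb1 and Zeb2, whose products repress epithelial genes with CtBP corepressors, overlapped between the groups. Zeb1, on chromosome 18 (5591860 to 5775467, plus strand), was at 81.7, 42.8 and 42.7 CPM across the controls and at 59.7, 65.1 and 46.7 CPM across the treated tumors, with a log2 fold change of 0.03 (SE 0.33). Control 5 was the highest of the 6 libraries and the other controls were the lowest. Zeb2, on chromosome 2 (44983632 to 45117395, minus strand), was at 225, 101 and 71.0 CPM across the controls and at 167, 229 and 128 CPM across the treated tumors, with a log2 fold change of 0.40 (SE 0.49). Zeb2 was thus higher in control 5 and in all treated tumors than in controls 6 and 7. The antisense gene Zeb2os, which shares 653 exon bases with Zeb2, was at 1.08 to 2.15 CPM in the controls and at 2.17 to 3.82 CPM in the treated tumors, without overlap. As the strand setting of the counting is not given in the sources used here, reads of the shared bases may not be told apart, and the same holds for Zeb1 and its antisense neighbor Gm10125, which had 3 to 15 counts.

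Twist1, on chromosome 12 (33957671 to 33959829, plus strand), encodes a basic helix-loop-helix factor of mesenchyme and was the factor with the fewest counts. It had 3, 5 and 4 counts across the controls and 27, 22 and 10 counts across the treated tumors. The levels were 0.132, 0.424 and 0.430 CPM against 1.33, 1.08 and 0.520 CPM, so the groups did not overlap but the lowest treated tumor was only 1.21-fold above the highest control. Control 5 was at the floor of 3 counts. Only the treated tumors reached 10 counts, so Twist1 passed the low-count filter through them alone. Its fold change and lack of overlap are therefore a description only. The log2 fold change was 1.66 (SE 0.63). Unlike Vim and Snai1, Twist1 was lower in control 5 than in the other controls. Its paralogue Twist2 was at 0.170 to 0.658 CPM in the controls and 0.104 to 0.784 CPM in the treated tumors.

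The window upstream of the transcription start is shown for Snai1 and Twist1, the members with the largest positive log2 fold change among the factors. The windows are the 250 bases before the start in RefSeq on GRCm38.p6, which was matched for 4 of the 10 genes (Vim, Snai1, Zeb2 and Twist1). Both strands were searched for the E-box bound by SNAIL and ZEB proteins, CACCTG or its complement CAGGTG, which is in capitals.
Snai1 (chr2:167537945-167538194, plus strand): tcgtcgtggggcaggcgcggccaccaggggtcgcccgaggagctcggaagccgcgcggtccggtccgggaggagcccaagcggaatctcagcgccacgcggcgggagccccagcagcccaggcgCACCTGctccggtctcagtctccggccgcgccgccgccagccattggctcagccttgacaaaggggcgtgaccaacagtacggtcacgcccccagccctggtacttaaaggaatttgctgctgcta
Twist1 (chr12:33957421-33957670, plus strand): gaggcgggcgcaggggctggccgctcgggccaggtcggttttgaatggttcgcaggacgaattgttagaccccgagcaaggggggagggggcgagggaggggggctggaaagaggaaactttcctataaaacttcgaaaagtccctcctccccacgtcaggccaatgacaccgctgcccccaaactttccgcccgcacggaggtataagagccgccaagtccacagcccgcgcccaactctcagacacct
The Snai1 window held 1 match, 126 bases before the start, and the windows of Twist1, Vim and Zeb2 held 0. The motif was present in 17.2% of 32851 such windows, and a match is a description of the letters and not of binding.

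Over the 9 genes tested, edgeR's quasi-likelihood test called 0 at an adjusted p under 0.05, as it did 0% of all genes, and their adjusted p-values lay between 0.247 and 0.956. At an unadjusted p under 0.05, 3 of the 9 passed (Zfp750 and Cdh2 lower, Twist1 higher), against 17.5% of all genes. DESeq2 called Zfp750 alone, with a log2 fold change of -2.29 (SE 0.49), against 10.5% of the genes to which it gave an adjusted p, and it gave none to Snai1 and Twist1. The groups did not overlap for 2 genes that were higher with GOx-DOX-LGP (Vim and Twist1, against 8.87% of all genes) and for 2 that were lower (Zfp750 and Cdh2, against 8.31%). The log2 fold change was above 0 for 5 of the 9 and for 51.1% of all genes, and its median was 0.03 over the 9 and 0.02 over all genes. Twist1, which is in the counts of genes higher with GOx-DOX-LGP, passed the low-count filter only through the treated tumors.

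The number of genes called depended on control 5. Without it, 6 of the 9 genes had an adjusted p under 0.05 by edgeR (Vim, Snai1 and Zeb2 higher, and Zfp750, Cdh2 and Snai2 lower), but so had 47.7% of all genes. With limma voom and sample quality weights, 8 of the 9 were called, against 60.2% of all genes. With control 5 as the sole control, a fit whose spread comes from the treated tumors only, the log2 fold changes of Snai2, Zeb1 and Zeb2 were 0.33, -0.50 and -0.35, each of the opposite sign. A fit with the mean log2 CPM of the hepatocyte genes as covariate gave -0.29 for Zeb1 and -0.07 for Zeb2, and kept the sign of Zfp750, Vim, Snai1 and Twist1 at -1.67, 1.02, 0.80 and 2.45.

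**Figure D2:**
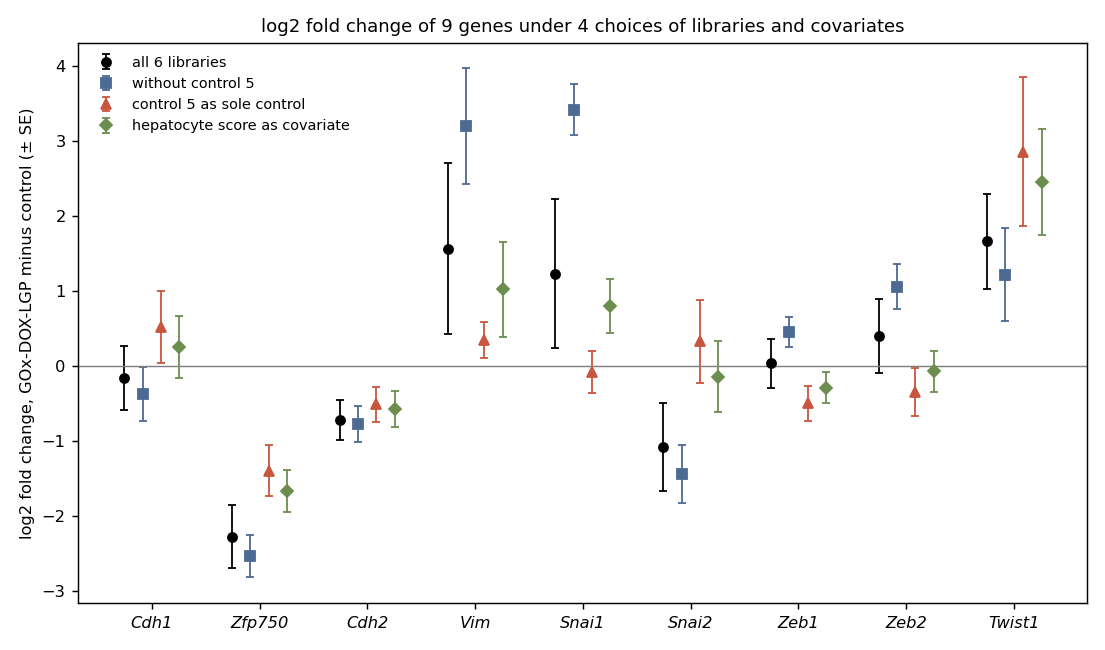
The log2 fold change (vertical axis, GOx-DOX-LGP minus control, bars are SE) of the 9 genes tested, in the fit to all 6 libraries, without control 5, with control 5 as the sole control, and with the hepatocyte score as covariate. Zfp750 and Cdh2 stay below 0 and Vim and Twist1 above 0 in all 4 fits, with Vim spanning 0.34 to 3.20, whereas Cdh1, Snai1, Snai2, Zeb1 and Zeb2 lie on both sides of 0. For Zfp750, Cdh2, Vim and Twist1 the groups do not overlap, which nearly fixes the sign without control 5 or with it alone.

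Ratios of counts within a library do not depend on how libraries are scaled. The ratio of Vim to Cdh1 counts was 196, 27.6 and 4.04 across the controls and 208, 102 and 305 across the treated tumors. Control 5 lay inside the range of the treated tumors. The ratio of Snai1 to Snai2 was 4.34, 0.130 and 0.0878 across the controls and 3.98, 2.14 and 4.91 across the treated tumors, so Snai1 had more counts than Snai2 in control 5 and in every treated tumor and fewer in controls 6 and 7. The order was the same per kilobase of exon. The ratio of Cdh2 to Cdh1 overlapped as well, at 1.95 to 3.38 in the controls and 1.11 to 2.26 in the treated tumors.

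The ratio of Zfp750 to Cdh1 counts separated the groups, at 0.325, 0.341 and 0.423 across the controls and at 0.117, 0.0606 and 0.106 across the treated tumors. Zfp750 alone was already lower in each treated tumor than in any control, and Cdh1 had a similar range in both groups. The separation of this ratio was therefore nearly bound to follow and adds little to the Zfp750 values. Both genes were higher in controls 6 and 7 than in control 5, so the ratio was similar in the 3 controls, and the part of hepatocyte transcripts in it was not tested. The ratio of Vim to Cdh2 was bound to separate the groups, because Vim was higher and Cdh2 lower in each treated tumor than in any control. It adds nothing to those values. It was 1.70 to 58.1 in the controls and 91.7 to 141 in the treated tumors, with control 5 the highest control.

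**Figure D3:**
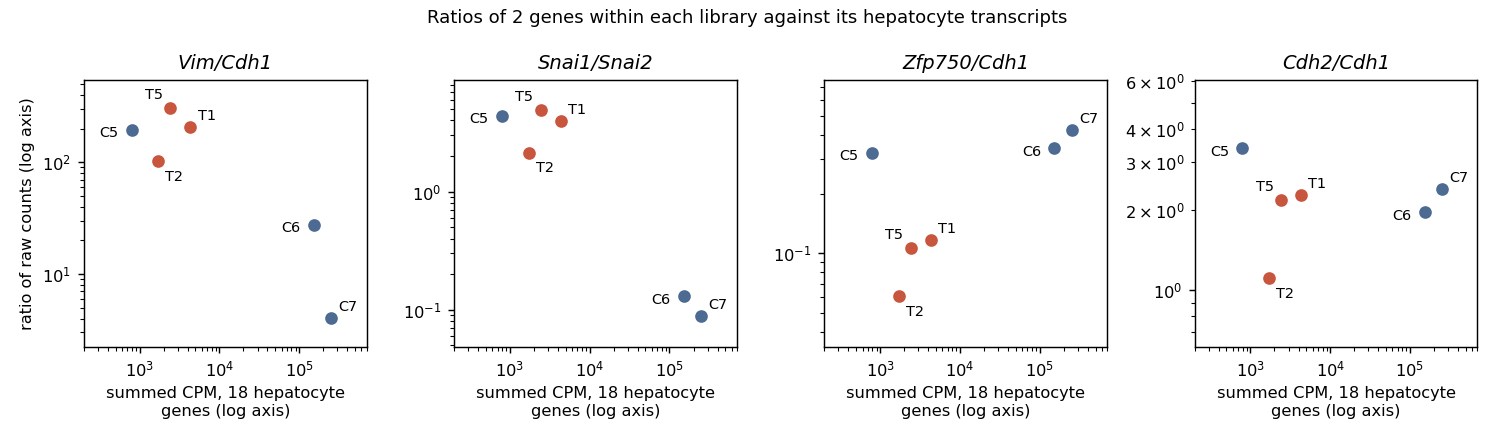
Ratio of raw counts of a pair of genes (vertical log axis) against the summed CPM of 18 hepatocyte genes in the same library (horizontal log axis), for controls (C5 to C7, blue) and treated tumors (T1, T2, T5, red). Control 5 lies with the treated tumors for Vim/Cdh1 and Snai1/Snai2 and with the other controls for Zfp750/Cdh1.

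Per kilobase of exon, Vim was the most abundant of the 10 genes in every library, with a mean of 676 CPM per kb in the controls and 1991 CPM per kb in the treated tumors. The order of the others differed between the controls, so a control mean does not describe it. In control 5 Cdh2 was at 16.04 CPM per kb, Snai1 at 13.3, Zeb2 at 11.3, Cdh1 at 8.36, Zeb1 at 7.96, Zfp750 at 3.84 and Snai2 at 2.45 CPM per kb. In controls 6 and 7 Cdh2 and Cdh1 came next to Vim, Zfp750 was at 6.80 and 10.4, Snai2 at 9.06 and 7.88, Zeb2 at 5.06 and 3.56, and Snai1 at only 1.46 and 0.863 CPM per kb. In the treated tumors Snai1 was at 10.4 to 14.8, Cdh2 at 9.23 to 12.8, Cdh1 at 7.51 to 18.0, Zeb2 at 6.43 to 11.49, Zeb1 at 4.55 to 6.34, Snai2 at 1.70 to 4.44 and Zfp750 at 1.13 to 1.65 CPM per kb. Snai1, Cdh2, Cdh1 and Zeb2 overlapped there and their order is not set beyond the spread. Twist1 (0.0808 to 0.820 CPM per kb) and Esrp1 (0.0538 to 0.119 CPM per kb) were the lowest of the 10 genes in every library. With the longest transcript in place of all exons, the order of the group means between Vim and Twist1 changed, and Zeb2 moved up to 14.5 and 19.1 CPM per kb.

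Other genes of these states were described by lists of junction components, regulators and effectors. Of 26 epithelial junction genes 24 were tested, and their median log2 fold change was -1.78, against 0.02 for all genes. At an unadjusted p under 0.05, 13 were lower and 1 higher, and 0 passed adjustment by edgeR, while DESeq2 called 12 lower. Lower calls were also the more frequent over all 15374 genes, with 2243 lower and 442 higher at an unadjusted p under 0.05 and 1373 lower and 143 higher by DESeq2. The 3 with the largest log2 fold change were Ocln, for the tight junction protein occludin, at -4.77 (SE 1.21), the claudin gene Cldn3 at -4.67 (SE 1.46) and the desmosomal cadherin gene Dsg2 at -4.49 (SE 1.27). Dsg2 was at 7.81 CPM in control 5, at 206 and 373 CPM in controls 6 and 7, and at 6.61 to 11.6 CPM in the treated tumors, so control 5 lay inside the range of the latter. Ocln was at 1.71, 48.6 and 47.1 CPM across the controls and at 0.832 to 1.58 CPM in the treated tumors, without overlap but with control 5 next to them. The placental cadherin gene Cdh3 was at 0.430 to 4.61 CPM in the controls and 1.87 to 5.19 CPM in the treated tumors.

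Of 16 epithelial regulators 9 were tested, with 5 positive and 4 negative log2 fold changes and a median of 0.07. By size of log2 fold change they were led by Esrp2 at -5.21 (SE 1.45), by Klf4, for a zinc finger factor of epithelial differentiation, at 1.45 (SE 0.81), and by Spint2, for an inhibitor of serine proteases, at -1.09 (SE 0.57). Klf4 was higher in each treated tumor (145 to 202 CPM) than in any control (125, 44.4 and 10.8 CPM in controls 5, 6 and 7). At an unadjusted p under 0.05 only Esrp2 of these 9 passed, against 17.5% of all genes, and it was lower.

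All 26 mesenchymal effector genes were tested, 25 had a positive log2 fold change against 51.1% of all genes, and the median was 0.92. Only 1 passed an unadjusted p under 0.05, 0 passed adjustment by edgeR and 0 by DESeq2, and the groups did not overlap for 4, each higher with GOx-DOX-LGP, against 8.87% of all genes. Control 5 was below every treated tumor only for these 4. It was above every treated tumor for Fn1, Col1a1, Itga5, Itgb1, Axl and Cd44, named after their values were seen. Axl was at 962, 256 and 82.5 CPM across the controls and at 824 to 900 CPM in the treated tumors. Lox, for the collagen crosslinking enzyme lysyl oxidase, was at 69.5, 7.38 and 3.77 CPM across the controls and at 78.3, 185 and 33 CPM across the treated tumors (log2 fold change 1.87, SE 1.21). Anxa2, for annexin A2, had a log2 fold change of 1.58 (SE 0.98). For Lox control 5 lay inside the range of the treated tumors, and for Anxa2 it was next to it, at 1456 CPM against 1738 to 1965 CPM. Cdh11, a cadherin gene of mesenchymal cells, was at 2.04 to 4.74 CPM in the controls and 3.85 to 6.17 CPM in the treated tumors.

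Of 15 mesenchymal regulators 9 were tested, and 8 had a positive log2 fold change (median 0.48), against 51.1% of all genes. None passed an unadjusted p under 0.05, against 17.5% of all genes. The 3 largest were Hmga2, for a chromatin protein of fetal and tumor cells, at 1.10 (SE 1.47), Runx2, for an osteogenic factor, at 1.07 (SE 1.04), and Sox9, for a progenitor and biliary factor, at 1.03 (SE 1.00). Hmga2 was at 1817, 123 and 15.1 CPM across the controls and at 1011 to 1679 CPM in the treated tumors. In these genes, as in Vim and Snai1, the spread among controls exceeded the distance of control 5 from the treated tumors.

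The TGF-beta pathway, whose ligands are known inducers of the transition, was represented by 23 genes, of which 18 had a positive log2 fold change (median 0.49), 1 was higher and 2 were lower at an unadjusted p under 0.05. Over all genes, 51.1% were positive and 17.5% passed that threshold in either direction. Inhbe, for an activin subunit of hepatocytes, was at -4.31 (SE 1.52), and Id2, for an inhibitor of helix-loop-helix factors, was at -1.495 (SE 0.60). Inhbe was at 1.01, 54.6 and 134 CPM across the controls and at 1.93 to 5.49 CPM in the treated tumors. Id2 was at 94.7, 416 and 475 CPM across the controls and at 104 to 128 CPM in the treated tumors. For both genes control 5 was lower than every treated tumor. Bmp4, for a ligand of the BMP branch, was at 25.1, 13.3 and 10.5 CPM across the controls and at 37.7, 35.2 and 37.6 CPM across the treated tumors, without overlap and with a log2 fold change of 1.17 (SE 0.35). Among 6 genes whose transcripts are spliced under ESRP control, 3 were positive and 3 negative. Fgfr2, a fibroblast growth factor receptor gene, was at 7.63, 62.6 and 71.7 CPM across the controls and at 6.77, 6.22 and 4.58 CPM across the treated tumors (log2 fold change -3.01, SE 0.81). Cd44, for a hyaluronan receptor, and Fgfr1, for another fibroblast growth factor receptor, were at 1.11 (SE 1.14) and 1.09 (SE 1.14). Cd44 was at 1366, 214 and 40.0 CPM across the controls and at 1084 to 1242 CPM in the treated tumors. Fgfr1 was at 339, 32.2 and 12.6 CPM across the controls and at 240 to 315 CPM in the treated tumors. Control 5 was above every treated tumor for both. These are counts per gene and do not show which exons were used.

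**Figure D4:**
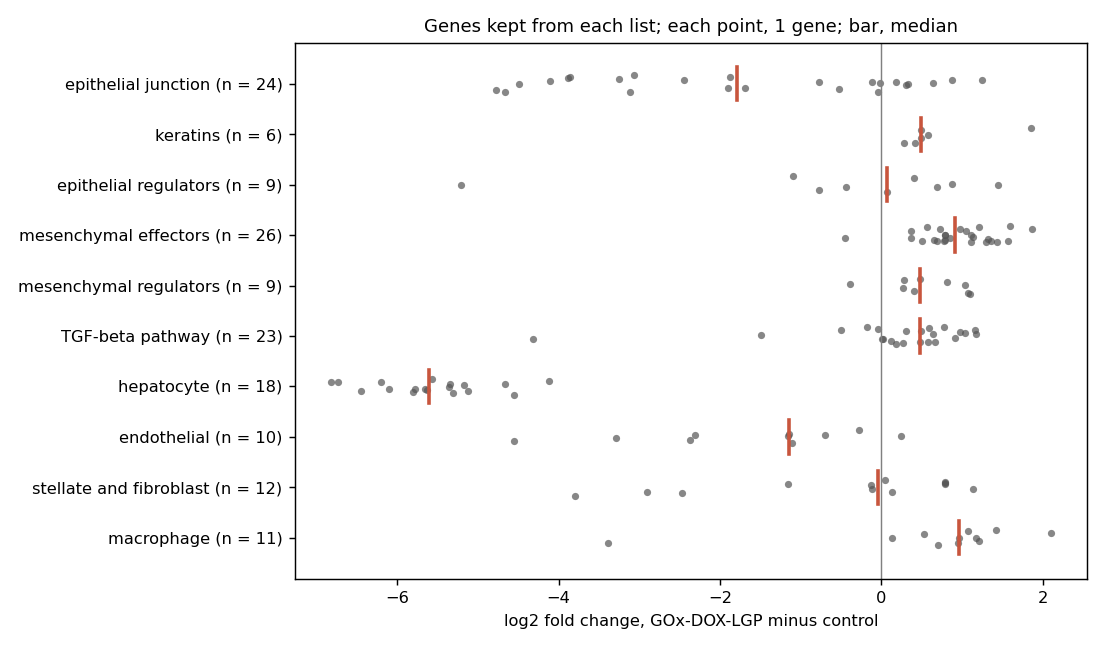
The log2 fold change (horizontal axis, GOx-DOX-LGP minus control) of each gene tested in 10 lists, with 1 point per gene and a bar at the median. Hepatocyte genes have a median of -5.60 and epithelial junction genes of -1.78, whereas mesenchymal effectors have 0.92 and macrophage genes 0.97.

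Transcripts of other cells that make vimentin or ZEB2 did not share one direction. Stellate and fibroblast genes (12 of 12 detected in every library) summed to 1860 to 5902 CPM in the controls and 2272 to 7051 CPM in the treated tumors, mostly from the collagen genes Col1a1, Col1a2 and Col3a1. Without these 3, a choice made after seeing the data, the sums were 440.2, 933 and 1075 CPM across the controls and 392, 630.4 and 216 CPM across the treated tumors. Col1a1 was at 2281, 334 and 223 CPM across the controls and at 806 to 2260 CPM in the treated tumors, and Pdgfrb, a receptor of stellate cells and pericytes, was at 31.7 to 88.4 CPM and 36.4 to 59.2 CPM. The other direction was seen for Lrat, for the retinol esterifying enzyme of stellate cells, Rgs5, of pericytes, and Reln, for reelin, with log2 fold changes of -3.80, -2.47 and -2.90. Across the controls Lrat was at 2.28, 38.2 and 37.1 CPM, Rgs5 at 65.2, 210 and 253 CPM, and Reln at 18.5, 70.5 and 129 CPM. In the treated tumors they were at 1.32 to 2.77, 22.0 to 39.5 and 7.30 to 13.7 CPM. For Lrat control 5 lay inside the range of the treated tumors. All 3 were lower at an unadjusted p under 0.05 by edgeR, against 17.5% of all genes in either direction. DESeq2 called all 3, against 10.5% of the genes to which it gave an adjusted p. Of the 12 genes, 2 (Rgs5 and Reln) were lower without overlap between the groups, against 8.31% of all genes. Endothelial genes (10 of 10 detected) summed to 154, 420 and 479 CPM across the controls and to 142, 140 and 118 CPM across the treated tumors. The sums did not overlap, but control 5 was next to the treated tumors. Pecam1 was at 38.5 to 44.1 CPM and 33.7 to 35.6 CPM. Of these 10 genes 7 were lower without overlap, against 8.31% of all genes. DESeq2 called 5 of the 10 lower, against 10.5% of the genes to which it gave an adjusted p. Macrophage genes (11 of 11 detected) summed to 915 to 1661 CPM in the controls and to 1601, 4305 and 2257 CPM across the treated tumors. Adgre1 was at 28.9 to 44.0 CPM and 27.8 to 106 CPM. Of these 11 genes 4 (Cd68, Fcgr1, Itgam and C1qb) were higher in each treated tumor than in any control, against 8.87% of all genes. Their log2 fold changes were 1.21, 1.18, 2.11 and 0.97. The rest overlapped, among them Csf1r (0.14), Mrc1 (0.53), C1qc (0.95), C1qa (1.08) and Lyz2 (1.43). Clec4f, of liver Kupffer cells, was at -3.39. Its level was 8.16, 96.8 and 101 CPM across the controls and 3.33 to 12.5 CPM in the treated tumors, with control 5 inside their range. Leukocyte genes (8 of 9 detected in every library) summed to 65.4 to 257 CPM and 216 to 276 CPM, with Ptprc at 39.3 to 116 CPM and 90.8 to 116 CPM. The T cell genes Cd3e, Cd3d and Cd8a were higher in each treated tumor than in any control, with log2 fold changes of 1.44, 1.73 and 1.20. These are 3 of the 7 leukocyte genes tested, against 8.87% of all genes, and Ptprc, Cd4, Ncr1 and Itgax overlapped. DESeq2 called Cd3e and Cd3d, against 10.5% of the genes to which it gave an adjusted p. These genes of stroma and leukocytes were named after their values were seen. Cholangiocyte genes (6 of 9 detected in every library), of which Sox9 and keratin genes are also counted above, summed to 249 to 7034 CPM in the controls and 4758 to 7141 CPM in the treated tumors, nearly all from Spp1, for osteopontin. Without Spp1 the sums were 71.8 to 196 CPM in the controls and 169 to 205 CPM in the treated tumors, with Krt19 at 13.0 to 69.6 CPM and 42.7 to 71.3 CPM. The part of these cells in the levels of Vim, Zeb2 and Snai1 was not tested.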

How the data were processed

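The authors deposited a table of raw read counts per gene and a table of normalized values in which counts had been divided by a size factor per library (a signal scale). The deposited normalized values equal the counts over one size factor per library, and they were used for symbols and this check. GEO's processing notes name Trimmomatic 0.38, HISAT2 2.1.0 and featureCounts 2.0.0, whereas the study's methods name other aligning and counting programs. The genome build, annotation and strand setting are not given in the sources used here. Counts per library and floors are given in the report, and the floors cover counting error only.

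Groups followed the sample titles. The counts were filtered with filterByExpr, scaled by TMM and fitted with edgeR 4.0.16, whose quasi-likelihood test was used in R 4.3.3 on all 15374 genes kept, with Benjamini-Hochberg adjustment at 0.05. The SE is the log2 fold change over the square root of F. Positions and exon lengths came from GENCODE M21 and promoters from RefSeq. The scripts were tested on simulated data. Alternatives were DESeq2 1.42.0 after the same filter, limma 3.58.1 (voom with sample quality weights), DESeq2-type, upper-quartile or total-count scaling, no filter, a hepatocyte covariate, each library left out, and control 5 as the sole control.

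The members and lists were chosen with earlier results of these data known. The genes named were the 10 members, the 3 genes of largest absolute log2 fold change in each of 8 lists, the paralogues Esrp2, Snai3, Twist2, Cdh3 and Cdh11, the markers Alb, Krt19, Pdgfrb, Col1a1, Pecam1, Adgre1, Ptprc, Krt5 and Krt14, annotated genes overlapping a member, and, for Cdh1, Esrp1, Cdh2 and Vim, the 3 genes nearest in pattern. A gene that this rule names among the mesenchymal effectors is not reported here.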

Additional observations from a re-analysis of the deposited data

How the results depend on the processing

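No paired analysis was possible because the groups share only 1 replicate number. Genes with an adjusted p under 0.05 numbered 0 in the edgeR fit to all 6 libraries, 1516 with DESeq2, 9254 with voom and quality weights, and 0 to 7745 on leaving out one library (7745 without control 5). Of the 9 members, 0 were called in that fit, 1 with DESeq2, 8 with voom and 0 to 6 on leaving out one library (6 without control 5), and the number without overlap was 4, and 4 to 8 on leaving out one library (8 without control 5). Over all genes, 2642 of 15374 did not overlap in the fit to all 6 libraries, and 11706 of 16249 did not overlap without control 5. The log2 fold change changed sign for Cdh1 with total-count scaling (0.49), upper-quartile scaling (0.035), the hepatocyte covariate (0.25) and control 5 as the sole control (0.52). With control 5 as the sole control it also changed sign for Zeb1 (-0.50), Zeb2 (-0.35), Snai1 (-0.089) and Snai2 (0.33), and with the covariate for Zeb1 (-0.29) and Zeb2 (-0.073). On leaving out one library, Cdh1 lay between -0.58 and 0.13, Zeb1 between -0.13 and 0.45. The cause was not tested. Zfp750, Cdh2, Vim and Twist1 kept their direction in 14 of 14 alternatives. These are the members without overlap between the groups. Their sign was therefore nearly fixed in advance on leaving out a library or with control 5 as the sole control. Total-count scaling moved the median of all genes from 0.02 to 0.51, so relative to it Cdh1 was near 0. Low counts limit Esrp1 and Twist1: a prior count of 0.5 in place of 2 moved their log2 CPM by up to 0.31 and 0.62.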

Other observations

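Keratins of simple epithelia did not share the direction of the junction genes. All 6 listed were tested and had a positive log2 fold change, with a median of 0.50, and none passed an unadjusted p under 0.05. Over all genes, 51.1% were positive and 17.5% passed that threshold. Krt20, of intestinal and urothelial epithelium, was at 8.25, 3.22 and 0.753 CPM across the controls and at 13.1, 23.7 and 8.48 CPM across the treated tumors (log2 fold change 1.86, SE 0.84), without overlap but with control 5 next to the treated tumors. Krt18 and Krt19 were at 0.58 (SE 0.36) and 0.50 (SE 0.60). Krt8, named after its values were seen, was at 433, 347 and 313 CPM across the controls and at 495 to 540 CPM in the treated tumors. Its log2 fold change was 0.50 (SE 0.28). Of the 6 keratins 2 (Krt8 and Krt20) were higher without overlap, against 8.87% of all genes. The 7 genes of ZEB corepressor partners were all positive, against the same 51.1% of all genes, with a median of 0.43. None passed an unadjusted p under 0.05. The largest were Ctbp2 for a CtBP protein (0.76, SE 0.60), Ezh2 for a histone methyltransferase (0.66, SE 0.38) and Hdac1 for a histone deacetylase (0.44, SE 0.28). Ctbp2 was at 44.3, 14.9 and 8.07 CPM across the controls and at 37.1 to 40.3 CPM in the treated tumors, with control 5 above them all. For Ezh2 and Hdac1 control 5 lay inside the range of the treated tumors. A group of 6 oncofetal liver tumor genes summed to 7.06 to 19.2 CPM in the controls and 5.34 to 7.91 CPM in the treated tumors.

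The genes nearest in pattern to 4 of the members were ranked by the root mean square difference of log2 CPM, each gene centered on its own mean over the 6 libraries. Vim was followed most closely by Gja1, for connexin 43 (0.14), Sema3b, for a semaphorin, and Cav1, for caveolin 1. Gja1 was at 262, 59.2 and 12.2 CPM across the controls and at 268 to 357 CPM in the treated tumors. Cdh2 was nearest to Slc20a2, for a phosphate transporter (0.078), Atp13a3 and Fam135a, and Cdh1 to Lmbr1 (0.11), Uggt2 and Pde8b. Esrp1 was nearest to Hspa5 (0.10), for the endoplasmic reticulum chaperone BiP, and to Hyou1, for another chaperone, and 2300009A05Rik, but Esrp1 itself rests on 4 to 11 counts per library. With 6 libraries that share their scaling, likeness is a description only.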
